A study of Rattus norvegicus with 24 samples.

Results

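The genes described here code for intermediate filaments and the proteins that tie them to the rest of the muscle fibre: the keratins Krt8 and Krt18, desmin (Des), vimentin (Vim), nestin (Nes), synemin (Synm), syncoilin (Sync), lamin A/C (Lmna), filamin C (Flnc) and plectin (Plec). They are 10 of the 13458 gene symbols in the table, taken by name, and each is represented by its transcript row with the highest mean. The group was chosen partly by the measured rise of Krt8 in limbs treated with tetrodotoxin (TTX). Krt8 is therefore given as a description without a test, and counts of genes past the threshold are over the other 9. The other members and the gene lists were also chosen with earlier results of these data known. Their p-values are not corrected for that choice.

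All 12 animals were male Fischer 344 rats aged 23 ± 1 months, and the tissue was the tibialis anterior (TA) of the lower leg. In 9 rats an osmotic pump delivered TTX, which blocks voltage-gated sodium channels, to the left common peroneal nerve, and the opposite limb received none. In 3 rats the muscle was collected at 6 to 7 days of TTX (atrophy), in 3 it was collected 9 days after TTX had ended (recovery), and 3 rats were given TTX again for 5 to 6 days once those 9 days had passed (repeated atrophy). The untreated right limbs of the same 9 rats formed the control group, and 3 sham-operated rats, 1 per time point, gave 3 left and 3 right limbs. RNA came from whole muscle, and each rat is 1 replicate. In such samples, fewer cells of a type and less RNA per cell cannot be told apart.

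Intermediate filaments are rope-like polymers that give cells mechanical strength. In skeletal muscle, desmin forms the main network, which rings the Z-discs and links neighbouring myofibrils to each other, to mitochondria, to nuclei and, through synemin, syncoilin and plectin, to the membrane. Keratins 8 and 18 are best known as partners in simple epithelia, vimentin and nestin as filaments of mesenchymal, developing and regenerating cells, lamin A/C as the scaffold under the nuclear envelope, and filamin C as an actin crosslinker of the Z-disc and of sites of fibre damage.

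The promoters of Krt8 and of Krt18, Lmna and Flnc, the 3 genes called higher in both silenced groups, are shown first. RefSeq sequences (GRCr8 assembly) span 250 bases before to 50 bases after the annotated start, and 9 of the 10 genes had an entry, Plec being the exception. The Krt8 window is chr7:135010290-135010589 on the minus strand, that of Krt18 chr7:135035918-135036217 on the plus strand, that of Lmna chr2:176258186-176258485 on the minus strand and that of Flnc chr4:58999297-58999596 on the plus strand. Capitals mark CAGCTG (an E-box bound by myogenic factors), the GC box GGGCGG, the box TATAAA of core promoters and the motif CCAAT, each on either strand, so that some read in reverse, and overlapping copies run together.
Krt8: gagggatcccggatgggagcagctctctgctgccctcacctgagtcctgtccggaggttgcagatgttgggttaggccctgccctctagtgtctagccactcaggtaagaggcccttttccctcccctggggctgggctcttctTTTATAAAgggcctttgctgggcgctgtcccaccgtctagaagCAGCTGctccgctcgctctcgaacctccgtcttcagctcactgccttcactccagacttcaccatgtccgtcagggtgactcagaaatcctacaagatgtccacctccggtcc
Krt18: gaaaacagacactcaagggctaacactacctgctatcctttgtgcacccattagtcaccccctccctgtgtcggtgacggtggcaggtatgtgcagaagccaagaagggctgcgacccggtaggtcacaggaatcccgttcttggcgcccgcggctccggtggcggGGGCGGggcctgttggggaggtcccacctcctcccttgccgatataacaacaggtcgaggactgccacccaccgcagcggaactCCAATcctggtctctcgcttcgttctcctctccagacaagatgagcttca
Lmna: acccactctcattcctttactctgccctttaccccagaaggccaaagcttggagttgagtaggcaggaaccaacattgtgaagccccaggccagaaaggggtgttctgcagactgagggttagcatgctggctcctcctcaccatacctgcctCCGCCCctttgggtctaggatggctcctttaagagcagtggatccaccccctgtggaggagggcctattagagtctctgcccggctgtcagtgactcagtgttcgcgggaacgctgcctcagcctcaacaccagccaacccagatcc
Flnc: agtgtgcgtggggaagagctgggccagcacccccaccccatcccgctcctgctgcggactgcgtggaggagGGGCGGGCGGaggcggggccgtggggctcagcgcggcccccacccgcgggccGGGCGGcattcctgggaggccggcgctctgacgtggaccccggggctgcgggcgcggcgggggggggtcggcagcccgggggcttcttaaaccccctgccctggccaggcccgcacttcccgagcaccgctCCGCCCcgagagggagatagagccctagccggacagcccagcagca
CAGCTG was present in Krt8, 63 bases before the annotated start, and in Des and Sync. This is 3 of the 9 windows, against 15.1% of the 33469 promoters of the same length. TATAAA was in Krt8 and Vim (14.2% of all promoters), whereas GGGCGG was in 7 of 9, among them Krt18, Lmna and Flnc but not Krt8 or Synm (33.1%), and CCAAT in Krt18, Vim and Synm (37.5%). TGANTCA, an AP-1 site, was found in Krt8 and Lmna (7.33%), and the general E-box CANNTG, which includes CAGCTG, in Krt8, Des and Sync (72.1%). These matches describe letters only. In Krt8 the bases from the annotated start on open with atg, the letters of a start codon. The TGANTCA match of Krt8 lies 14 bases after that start, not before it. Whether transcription begins at this start was not tested, so distances are to the annotated start alone.

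Levels are in CPM, the share of a library scaled to 1000000 in all. Differences are of log2(CPM + 1), so that changes of low genes come out smaller than they are. Genes were called when the fold change was at least 1.2 and the Benjamini-Hochberg adjusted p, from limma over all 14031 rows tested, was at most 0.05. In the main fit of the TTX rats, both limbs of a rat entered as separate units. Its p-values thus measure the spread among limbs and leave the pairing out. A fit with the animal as a block, which compares the limbs within each rat, is given beside it where stated. Atrophy rats 2 and 3 stood apart: on the first principal component the left limb of rat 2 lay at 1.2, against 59.9 and 54.8 for the other atrophy limbs, and the right limb of rat 3 lay at 11.8, against -49.3 to -5.8 for the other controls. Results are therefore given with and without these rats where a call changed, and for Krt8 and Des. The median of all rows was 0.22 higher after atrophy and 0.20 higher after repeated atrophy than in control, and rescaling the libraries by a trimmed mean of log ratios brought both to within 0.01 of 0, so values after this rescaling are given where they alter a call. The 6 muscle fibre markers were abundant in every limb, with lower but overlapping sums in silenced ones: they came to 59700 to 122000 CPM in control, 45100 to 70500 CPM in atrophy, 89300 to 104000 CPM in recovery and 50400 to 74400 CPM in repeated atrophy limbs. CPM are shares of a library, and the part of this shift in the higher CPM of other genes was not tested.

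In control muscle, desmin dominated. Per kilobase of transcript, its level was 2430 ± 547 CPM (SD, n = 9), followed by synemin at 176 ± 31.6 and filamin C at 157 ± 63.7, which did not differ beyond their spread. Vimentin stood at 92.3 ± 13.7, lamin A/C at 43.1 ± 15.2, syncoilin at 26.5 ± 6.49 and the main plectin row at 11.3 ± 5.02 CPM per kilobase. That row held 14.1% of the CPM of the 11 plectin rows, which together came to 74.9 ± 25.6 CPM per kilobase, a mean above that of lamin A/C and below that of vimentin, whose spread it overlapped. Nestin (6.04 ± 1.13), Krt8 (1.77 ± 1.23) and Krt18 (1.26 ± 0.835) were the lowest, and the keratins overlapped. After repeated atrophy (n = 3), filamin C stood at 382 ± 97.4 CPM per kilobase, above synemin at 134 ± 14.2, and lamin A/C at 134 ± 32.1, above vimentin at 89.1 ± 16.6. Krt8 reached 36.6 ± 5.31 and Krt18 22 ± 15.1 CPM per kilobase, with means above nestin (5.85 ± 2.13) and below the 11 plectin rows together (78.1 ± 40.7).

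**Figure D1:**
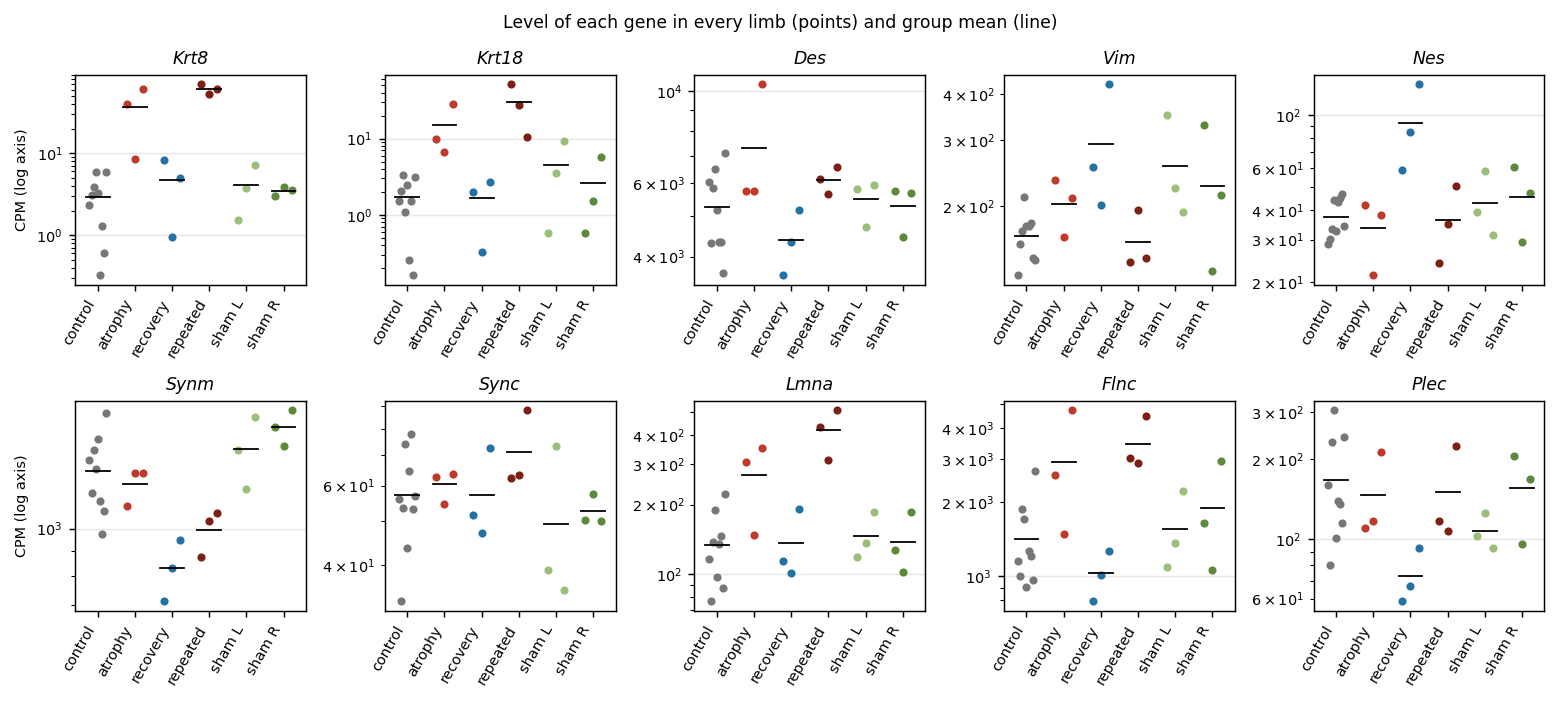
Level of each gene in CPM on a log axis in all 24 limbs (points), grouped as 9 control limbs and 3 limbs each of atrophy, recovery, repeated atrophy, sham left and sham right; black lines are group means. Krt8 in the repeated atrophy limbs lies between 52.5 and 70.1 CPM, above every control limb (at most 5.91 CPM).

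The keratins lie next to each other on chromosome 7 in the rn7 build of the table, Krt8 at 133124203 to 133131657 on the minus strand and Krt18 at 133157486 to 133161163 on the plus strand. Krt8 ranged from 0.326 to 5.91 CPM in the control limbs, with a median of 3.13. It was 40.4, 8.61 and 60.6 CPM in the 3 atrophy limbs, 8.25, 0.941 and 5.01 CPM in the recovery limbs, and 70.1, 52.5 and 60.4 CPM in the repeated atrophy limbs. All silenced limbs were thus above all control limbs, the lowest being that of atrophy rat 2, and the recovery limbs overlapped with control. The means were 36.5 ± 26.2, 4.73 ± 3.66 and 61 ± 8.85 CPM, respectively, against 2.96 ± 2.05 CPM in control, which is a log2 difference of 3.08, 0.47 and 4.16. Without atrophy rat 2 the atrophy difference was 3.92, and without atrophy rat 3 it was 2.66. Within rats, the left limb exceeded the right by 2.66 ± 1.3 after atrophy (3 of 3 rats), 1.49 ± 1.56 after recovery (2 of 3 rats) and 3.57 ± 0.49 after repeated atrophy (3 of 3 rats). The larger recovery difference within rats went with low right limbs: those of the recovery rats held 0.326 to 1.29 CPM, below the 2.34 to 5.91 CPM of the other 6.

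Krt18, the type I partner of keratin 8, was tested and rose in both silenced groups. It ranged from 0.163 to 3.36 CPM in control, with a median of 1.52, and was 9.89, 6.61 and 28.1 CPM after atrophy, 1.97, 0.327 and 2.72 CPM after recovery and 51.7, 27.9 and 10.6 CPM after repeated atrophy. No silenced limb overlapped with control. The difference was 2.43 (SE 0.49, adjusted p = 0.0067) after atrophy and 3.39 (SE 0.49, adjusted p = 1.5e-04) after repeated atrophy, and -0.02 (adjusted p = 0.99) after recovery. With the animal as a block, the atrophy call was lost (2.02, adjusted p = 0.15) and the repeated atrophy call kept (3.10, adjusted p = 0.0041). The recovery difference was then 0.67 (adjusted p = 0.49), and the right limbs of the recovery rats held 0.163 to 1.51 CPM. The atrophy call was also lost without atrophy rat 1 (adjusted p = 0.13), but not without rat 2 (2.89, adjusted p = 0.0017) or rat 3 (1.96, adjusted p = 0.033). The ratio of Krt8 to Krt18 had a median of 1.51 in control, 2.16 in atrophy, 2.88 in recovery and 1.88 in repeated atrophy limbs, with ranges that overlapped (0.854 to 5.36 in control, 1.36 to 5.69 after repeated atrophy).

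Markers of other cells were read beside the keratins. Of 5 epithelial markers, 4 were in the table (Epcam, Cdh1, Krt14 and Krt19), and they summed to only 0.442 to 2.13 CPM in any limb, with Krt14 at 0 in all. Their highest sum was 1.46 CPM after atrophy and 1.13 CPM after repeated atrophy, below the 1.96 CPM reached in control. The 6 satellite cell and myoblast markers summed to 81.1 to 233 CPM in control, 279 to 1060 CPM in atrophy, 84.9 to 224 CPM in recovery and 653 to 835 CPM in repeated atrophy limbs, so the sum moved with the keratins, and its part in the result was not tested. In the silenced limbs most of the sum was myogenin (Myog), at a mean of 57.4 CPM in control, 465 CPM in atrophy, 59.8 CPM in recovery and 528 CPM in repeated atrophy limbs, whereas Myod1 stood at 62.8, 128, 55.9 and 179 CPM. Myog rose by 3.40 (adjusted p = 2.9e-04) and Myf5 by 3.05 (adjusted p = 4.1e-04) after repeated atrophy, as did Myod1 by 1.52 (adjusted p = 7.9e-04), whereas M-cadherin (Cdh15) fell by 0.90 (adjusted p = 0.0099). Vcam1 had its highest mean in recovery limbs, at 7.64 ± 1.72 CPM against 3.38 ± 1.26 CPM in control, 5.76 ± 0.644 CPM in atrophy and 5.84 ± 1.31 CPM in repeated atrophy limbs. Pax7, which marks quiescent satellite cells, was at most 1.17 CPM in any of these limbs. The 5 rows most like Krt8 across the 24 limbs, among 6766 rows with a mean of at least 10 CPM, were Polr1d (Pearson r = 0.952), Ninj1 (0.948), Lmnb2 (0.944), Ppp1r27 (0.943) and Eif3l (0.939), a description over limbs that share the contrast between silenced and other muscle.

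**Figure D2:**
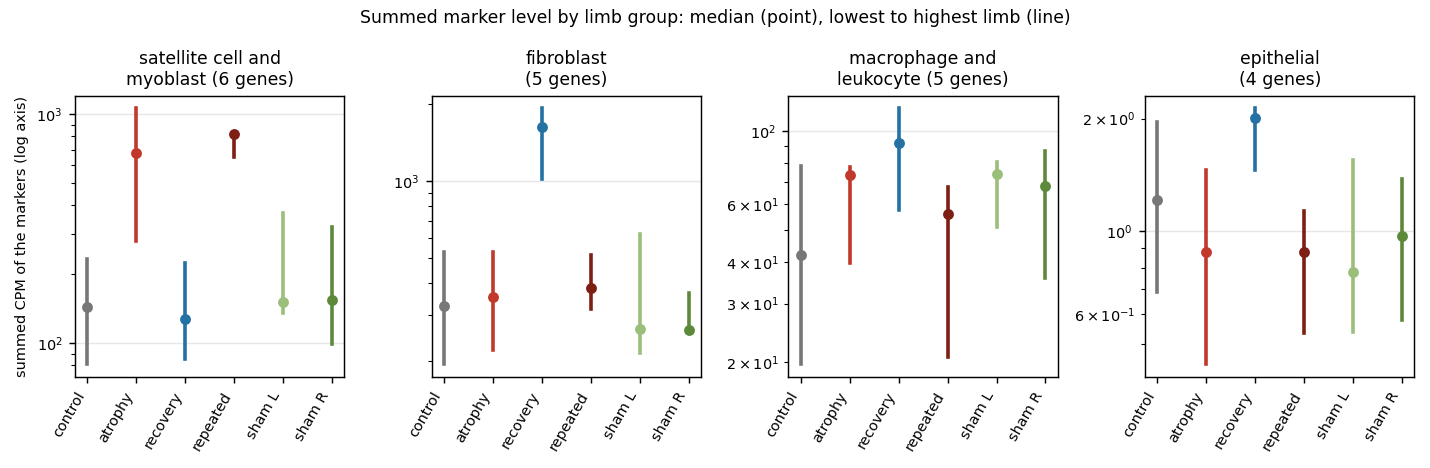
Summed CPM of 4 marker lists (log axes) by limb group, with the median limb as a point and the lowest to highest limb as a line. The satellite cell and myoblast sum, most of it Myog in silenced limbs, is high in the atrophy and repeated atrophy limbs. The fibroblast sum is high in the recovery limbs (1020 to 1920 CPM), and the epithelial sum stays at or below 2.13 CPM.

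After atrophy, Krt18, Lmna and Flnc were called higher, 3 of the 9 tested genes, and 0 were called lower. Among all rows, 20.3% rose and 2.33% fell, and after rescaling 665 rows rose and 688 fell, against 2844 and 327 as deposited. After rescaling only Krt18 of the 9 was called, and with the animal as a block 0 of the 9 were, as were 0 of all 14031 rows in that fit (limma), although 5203 had an unadjusted p below 0.05 without the block. After repeated atrophy the same 3 genes, Krt18, Lmna and Flnc, were called higher and 0 lower, against 28.1% and 6.24% of all rows (3936 and 876 rows, or 1846 and 1695 after rescaling). All 3 calls held after rescaling and without any single rat. They also held with the block, where 3806 of all 14031 rows were called in either direction. After rescaling Synm was called lower as well, 1 of the 9.

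Lamin A/C roughly tripled after repeated atrophy. Lmna (chromosome 2, 173939751 to 173960424) ranged from 76.5 to 221 CPM in control, with a median of 136. It was 306, 147 and 350 CPM after atrophy, 115, 101 and 191 CPM after recovery, and 433, 312 and 509 CPM after repeated atrophy. The repeated atrophy limbs all lay above control, while the limb of atrophy rat 2 lay within it. The difference was 1.68 (SE 0.31, adjusted p = 6.3e-04) after repeated atrophy, or 1.3 after rescaling. After atrophy it was 0.97 (SE 0.31, adjusted p = 0.031), a call lost after rescaling (0.61, adjusted p = 0.15), with the block (adjusted p = 0.21) and without atrophy rat 1 (0.24), atrophy rat 3 (0.094) or recovery rat 1 (0.053). Without atrophy rat 2 it was 1.31 (adjusted p = 0.0065). After recovery Lmna differed from control by 0.03 (adjusted p = 0.96).

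Filamin C followed a similar order. Flnc (chromosome 4, 58034189 to 58061883) ranged from 903 to 2680 CPM in control, with a median of 1210, and the highest of these was the right limb of atrophy rat 3. It was 2580, 1480 and 4730 CPM after atrophy, 793, 1020 and 1270 CPM after recovery, and 3020, 2880 and 4470 CPM after repeated atrophy. The repeated atrophy limbs did not overlap with control and the atrophy limbs did. The right limb of sham rat 3 held 2950 CPM, above the lowest repeated atrophy limb. The rise after repeated atrophy was 1.35 (SE 0.34, adjusted p = 0.0054) and 0.96 after rescaling (adjusted p = 0.029). After atrophy it was 0.98 (SE 0.34, adjusted p = 0.046), and this call was lost after rescaling (0.61, adjusted p = 0.22), with the block (adjusted p = 0.17), with all 12 right limbs as control (adjusted p = 0.083), without the low-value filter (adjusted p = 0.051) and without any one of 7 rats (atrophy rats 1 and 3, the 3 recovery rats, repeated atrophy rats 1 and 2), where the adjusted p was between 0.053 and 0.22. Without atrophy rat 2 it was 1.32 (adjusted p = 0.0093). Within rats the left limb was higher in 3 of 3 after atrophy (0.89 ± 0.23) and 3 of 3 after repeated atrophy (1.2 ± 0.51).

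**Figure D3:**
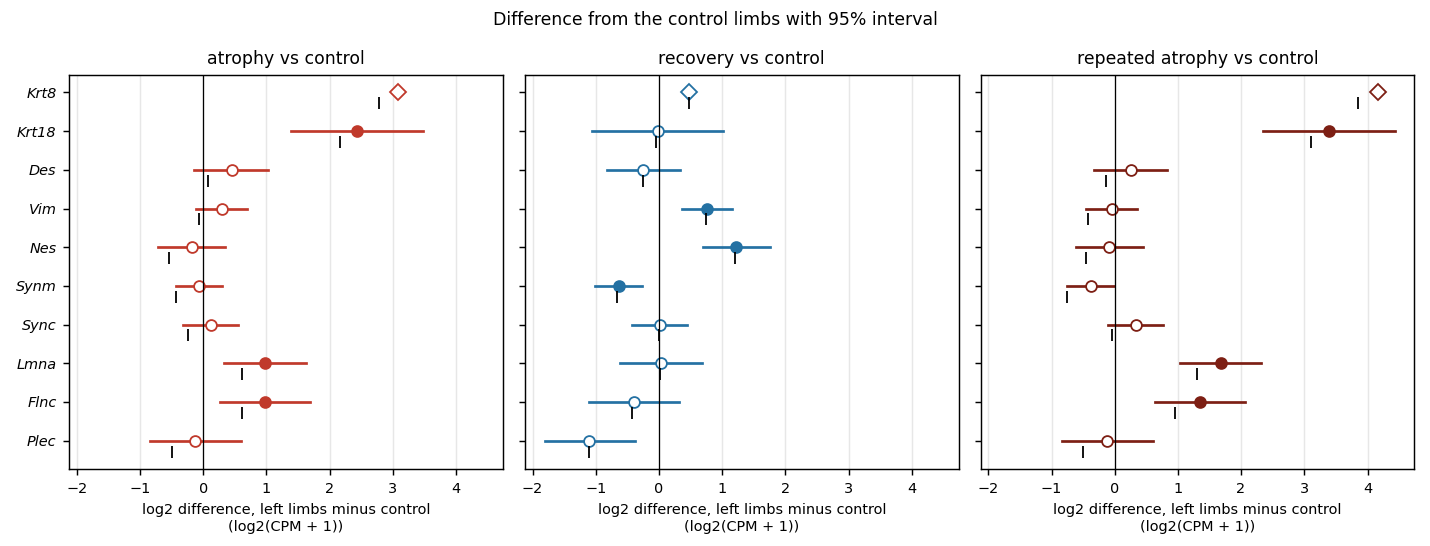
Difference from the control limbs on the log2(CPM + 1) scale for each gene, with 95% intervals; filled points are past the threshold, the open diamond is Krt8, which was not tested, and the short black strokes are the values after rescaling. Krt18, Lmna and Flnc stand to the right after atrophy and repeated atrophy, Vim and Nes after recovery.

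The recovery limbs showed another set of changes. Vim and Nes were called higher, 2 of the 9 genes, and Synm was called lower, 1 of the 9, against 4.4% of all rows that rose and 3.33% that fell (617 and 467 rows, or 878 and 817 after rescaling). After rescaling Plec was also called lower, which made 2 of the 9. With the animal as a block 0 of the 9 remained called, as did 9 of all 14031 rows.

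Nestin is a large filament protein that co-assembles with vimentin or desmin and marks regenerating fibres and progenitors. Nes (chromosome 2, 173438734 to 173447777) ranged from 28.9 to 46.4 CPM in control, with a median of 34.2. It was 58.8, 85.1 and 135 CPM after recovery, all above control, but 41.8, 21.3 and 38.1 CPM after atrophy and 23.9, 34.9 and 50.2 CPM after repeated atrophy. The recovery difference was 1.22 (SE 0.25, adjusted p = 0.0090), and 1.26 (adjusted p = 0.0030) when its 2 rows were summed. With the block it was 0.95 (adjusted p = 0.13), and without recovery rat 3, which had the highest value, 0.96 (adjusted p = 0.058). The right limbs of the recovery rats held 43.3 to 46.4 CPM. Those of the atrophy rats held 28.9 to 34.2 CPM and those of the repeated atrophy rats 30.1 to 44.2 CPM. Sham limbs reached 58.2 CPM on the left and 60.2 CPM on the right, the latter above the lowest recovery limb. Set against the other stages directly, the recovery limbs were higher than the atrophy limbs by 1.41 (SE 0.31, adjusted p = 0.0093), and Nes after repeated atrophy was below recovery by -1.31 (SE 0.31, adjusted p = 0.0060).

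Vimentin moved the same way by less. Vim (chromosome 17, 76668701 to 76677187) ranged from 130 to 211 CPM in control, with a median of 171, and was 254, 202 and 425 CPM after recovery, so that 1 of the 3 limbs overlapped with control. It was 234, 166 and 210 CPM after atrophy and 141, 194 and 145 CPM after repeated atrophy. The recovery difference was 0.76 (SE 0.19, adjusted p = 0.022). It was lost with the block (0.74, adjusted p = 0.21), with 12 right limbs as control (0.67, adjusted p = 0.069) and without recovery rat 1 (0.84, adjusted p = 0.089) or rat 3 (0.44, adjusted p = 0.18). The sham limbs held 352, 223 and 193 CPM on the left and 331, 134 and 213 CPM on the right, so that 4 of 6 lay above the highest control limb and 2 within the control range. The left sham limbs differed from control by 0.59 (unadjusted p = 0.0063, adjusted p = 0.27).

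Markers of fibroblasts, and some of macrophages and leukocytes, were also higher in the recovery limbs. The 5 fibroblast markers summed to 194 to 528 CPM in control, 221 to 528 CPM after atrophy, 1020 to 1920 CPM after recovery and 319 to 514 CPM after repeated atrophy, and 4 of the 5 (Dcn, Lum, Col1a1 and Col3a1) were called higher in recovery (Col3a1 by 3.45, adjusted p = 0.0023). The 5 macrophage and leukocyte markers summed to 19.7 to 78.3 CPM in control and 57.8 to 117 CPM after recovery, with Cd68 and Adgre1 called higher. The sum was 39.9 to 77.9 CPM after atrophy and 20.7 to 67.6 CPM after repeated atrophy. Sham limbs held 51.2 to 80.7 CPM on the left and 36 to 86.8 CPM on the right. The recovery sums thus overlapped with those of every other group. After rescaling, 5 of the 5 fibroblast and 4 of the 5 macrophage and leukocyte markers were called higher, beside 878 of all 14031 rows. With the animal as a block, 0 of these 10 markers were called (Col3a1 2.33, adjusted p = 0.080). No list was at 0, and the part of these cells in the Vim and Nes results was not tested. Endothelial markers, of cells that also express vimentin, summed to 151 to 162 CPM after recovery against 152 to 203 CPM in control, but reached 382 CPM in the left and 435 CPM in the right sham limbs.

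Synemin binds desmin and vimentin and anchors them to the membrane. Synm (chromosome 1, 121333716 to 121363653) ranged from 975 to 1720 CPM in control, with a median of 1320. It was 712, 833 and 948 CPM after recovery, all below control, 1110, 1300 and 1300 CPM after atrophy, and 875, 1040 and 1070 CPM after repeated atrophy. The recovery difference was -0.64 (SE 0.18, adjusted p = 0.033), or -0.37 with the block (adjusted p = 0.30). It was also lost without atrophy rat 1 (adjusted p = 0.050), repeated atrophy rat 2 (0.072) or 3 (0.055), or recovery rat 1 (0.21), 2 (0.077) or 3 (0.051). After repeated atrophy it was -0.38 (adjusted p = 0.11) and, after rescaling, -0.76 (adjusted p = 0.0021). In each of the 9 rats the left limb was below the right, by a mean of -0.32 in atrophy, -0.37 in recovery and -0.41 in repeated atrophy rats, and the left limb was also the lower in 3 of 3 sham rats (-0.16). The right limbs of the recovery rats held 975 to 1140 CPM, those of the atrophy rats 1380 to 1720 CPM.

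**Figure D4:**
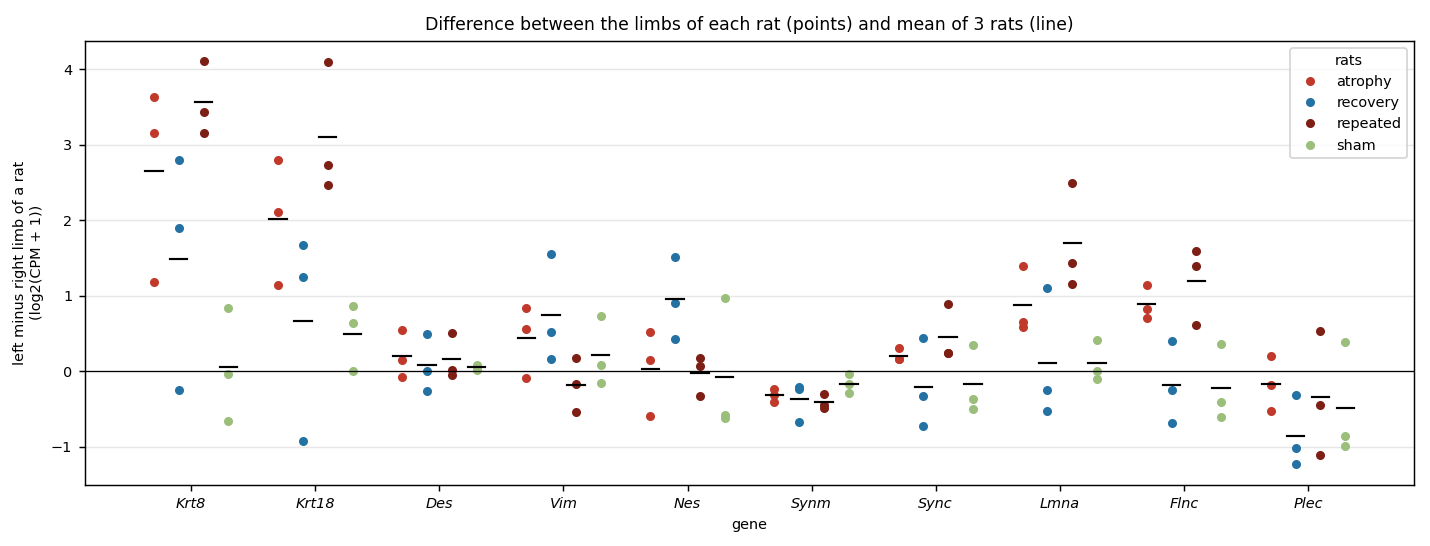
Left minus right limb of each rat on the log2(CPM + 1) scale (points) and mean of 3 rats (line), for atrophy, recovery, repeated atrophy and sham rats. Krt8, Lmna and Flnc are above 0 in all rats of the atrophy and repeated atrophy groups, and Synm is below 0 in all 12 rats.

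Plectin, the giant linker between intermediate filaments, Z-discs and membrane, was low in recovery without passing the threshold. Its highest row (chromosome 7, 107887764 to 107917238) ranged from 80.4 to 303 CPM in control, with a median of 139, and was 58.6, 66.8 and 93 CPM after recovery, 111, 117 and 212 CPM after atrophy and 117, 107 and 224 CPM after repeated atrophy. One recovery limb overlapped with control. The recovery difference was -1.10 (SE 0.34, adjusted p = 0.057), and it passed after rescaling (-1.11, adjusted p = 0.032) and without repeated atrophy rat 1 (-1.21, adjusted p = 0.032) or atrophy rat 2 (-1.17, adjusted p = 0.042). The table holds 11 Plec transcripts, which share most of their sequence and so share reads. In recovery all 11 lay below control, by -1.10 to -0.80, and 1 of them, the 10th by level, was called (-0.99, adjusted p = 0.045). Summed, they came to 580 ± 115 CPM after recovery and 1120 ± 381 CPM in control (-0.89, adjusted p = 0.074). After atrophy and repeated atrophy the rows differed from control by -0.13 to 0.12, and 0 of 11 were called.

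**Figure D5:**
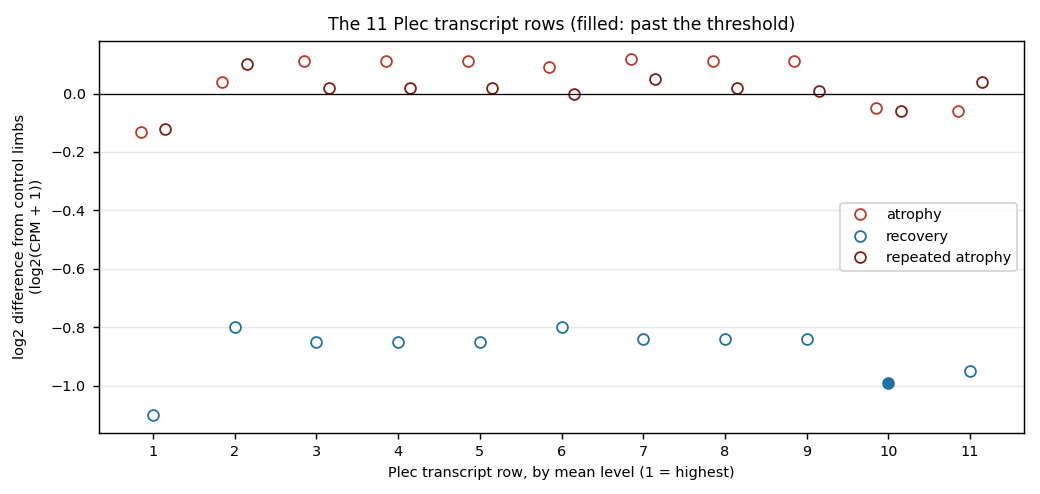
Difference of each of the 11 Plec transcript rows from the control limbs on the log2(CPM + 1) scale, ordered by mean level, for atrophy, recovery and repeated atrophy; filled points are past the threshold. The recovery points lie between -1.10 and -0.80, those of the silenced limbs between -0.13 and 0.12.

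Desmin, the most abundant of these transcripts, was called in no comparison. Des (chromosome 9, 76850987 to 76858695) ranged from 3650 to 7120 CPM in control and was 5750, 5760 and 10400 CPM after atrophy, 3610, 4350 and 5170 CPM after recovery, and 6130, 5670 and 6590 CPM after repeated atrophy. The limb of atrophy rat 3 stood highest. The differences from control were 0.45 (95% interval -0.14 to 1.03, adjusted p = 0.26), -0.25 (-0.83 to 0.34, adjusted p = 0.62) and 0.25 (-0.33 to 0.83, adjusted p = 0.54). The first was 0.22 (adjusted p = 0.64) without atrophy rat 3, 0.59 (0.17) without rat 2 and 0.62 (0.31) without rat 1, and after rescaling it was 0.08 (adjusted p = 0.89). Syncoilin, a desmin partner at the membrane (Sync, chromosome 5, 141632377 to 141654886), ranged from 33.3 to 78.2 CPM in control and from 47.2 to 88 CPM in the TTX limbs. Its differences were 0.12 (-0.32 to 0.55), 0.02 (-0.42 to 0.45) and 0.34 (-0.10 to 0.77). The unpaired intervals of both genes hold values of either sign. Within rats, Sync was higher in the left limb in 3 of 3 atrophy rats (0.21 ± 0.09) and 3 of 3 repeated atrophy rats (0.46 ± 0.37), and with the animal as a block the adjusted p was 0.61 and 0.14.

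The stages were also compared with each other. From atrophy to recovery, 1 of the 9 genes was called higher (Nes) and 2 lower (Krt18 by -2.45, SE 0.61, adjusted p = 0.014, and Flnc by -1.38, SE 0.42, adjusted p = 0.030), against 3.34% of rows that rose and 14.5% that fell (469 and 2036 rows, or 792 and 709 after rescaling). The Krt18 call was lost without recovery rat 2 (adjusted p = 0.089) or atrophy rat 3 (0.066), and the Flnc call after rescaling (0.083) and without atrophy rat 1 (0.083) or 3 (0.090) or recovery rat 1 (0.14) or 2 (0.10). Vim was higher by 0.47 (adjusted p = 0.17) and passed after rescaling (0.82, adjusted p = 0.019). From recovery to repeated atrophy, Krt18 (3.41, adjusted p = 0.0016), Lmna (1.64, adjusted p = 0.0053) and Flnc (1.75, adjusted p = 0.0062) were called higher, 3 of the 9, and Vim (-0.81, adjusted p = 0.016) and Nes were called lower, 2 of the 9. Of all rows, 21% rose and 6.29% fell (2941 and 882 rows, or 1442 and 1589 after rescaling). The Vim call was lost without recovery rat 3 (-0.51, adjusted p = 0.094) or repeated atrophy rat 1 (0.059) or 3 (0.053). With the animal as a block, which compares differences between limbs, 0 of the 9 genes were called in either comparison, as were only 2 and 12 of all 14031 rows.

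The first and the second silencing did not differ detectably for these genes. Between repeated atrophy and atrophy 0 of the 9 were called, against 0.0143% of rows that rose and 0.0214% that fell, and 884 rows had an unadjusted p below 0.05 in limma. The difference was 0.96 for Krt18 (95% interval -0.31 to 2.23), 0.71 for Lmna (-0.08 to 1.49) and 0.37 for Flnc (-0.50 to 1.24), so that differences of more than a doubling were not excluded by the intervals of Krt18, Lmna and Flnc. For Krt8 the value was 1.08, with 2 of 3 atrophy limbs below all 3 repeated atrophy limbs.

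The sham rats gave the background of surgery without TTX. The 9 genes other than Krt8 were tested here. Of these, 0 were called in the left sham limbs against control, in the left against the right sham limbs, or in the control limbs against the right sham limbs. Among all rows 0% were called by limma in each, and 1904, 576 and 1132 rows, respectively, had an unadjusted p below 0.05. Krt8 was 1.55, 3.76 and 7.14 CPM in the left and 2.99, 3.87 and 3.56 CPM in the right sham limbs, and Krt18 was 0.582, 3.54 and 9.36 CPM and 0.585, 1.5 and 5.66 CPM. The highest Krt18 sham value thus exceeded the lowest atrophy value (6.61 CPM). The left sham limbs differed from control by 0.76 for Krt18 (95% interval -0.33 to 1.84, adjusted p = 0.47). For Krt8 the difference was 0.43, a description only, since the control limbs entered the choice of this gene.

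Related genes were counted by family. Beside their counts, 20.3%, 4.4% and 28.1% of all rows rose after atrophy, recovery and repeated atrophy and 2.33%, 3.33% and 6.24% fell, with medians of 0.22, 0.02 and 0.20, which rescaling brought to 0, 0.01 and -0.01. With the animal as a block, 0 genes of the 5 families below were called after atrophy or after recovery. Of 20 further intermediate filament genes, 17 were in the table and 13 were tested. After atrophy 4 rose (Krt80, Lmnb2, Iffo1 and Bfsp1), after recovery 1 (Nefm) and after repeated atrophy 5 (those 4 and Nefm), while 0 fell, and the median difference of the 13 was -0.04, 0.11 and 0.21, or -0.04, 0.10 and 0.11 after rescaling. Lamin B2 (Lmnb2), a B-type partner of lamin A/C under the nuclear envelope, was 11 ± 6.08 CPM in control, 79.9 ± 59.1 CPM after atrophy, 9.82 ± 7.64 CPM after recovery and 143 ± 17.9 CPM after repeated atrophy, a rise of 3.75 (SE 0.51, adjusted p = 9.4e-05). The neurofilament gene Nefm was low throughout but went from 0.972 ± 0.539 CPM in control to 9.25 ± 0.698 CPM after repeated atrophy (2.43, adjusted p = 8.6e-05).

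Of the plakins and junction linkers, 6 of 9 were in the table and tested, with 2 up and 1 down after atrophy, 0 after recovery and 2 up and 2 down after repeated atrophy, and medians of 0.19, -0.23 and -0.10. After rescaling, 1 rose and 1 fell after atrophy, and the medians were -0.16, -0.25 and -0.41. After repeated atrophy, plakoglobin (Jup), a linker at cell junctions and at the dystrophin complex, rose by 1.53 (adjusted p = 4.5e-04) and Macf1, which joins actin to microtubules, by 1.29 (adjusted p = 4.5e-04). Periplakin (Ppl) fell by 0.92 (adjusted p = 0.013) at the same stage and plakophilin 2 (Pkp2) by 0.58 (adjusted p = 0.0035), the latter not called with the block (adjusted p = 0.072).

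Among 18 tested muscle partners of desmin and filamin C, 5 rose and 2 fell after atrophy, 1 rose after recovery (vinculin, Vcl), and 6 rose and 3 fell after repeated atrophy, with medians of 0.40, -0.01 and 0.18. After rescaling, 3 rose and 2 fell in atrophy limbs, and 5 rose and 5 fell in repeated atrophy limbs, with medians of 0.06, -0.02 and -0.06. The small heat shock protein Hspb8, which with Bag3 clears damaged filamin, went from 663 ± 178 CPM to 3620 ± 624 CPM after repeated atrophy (2.47, adjusted p = 3.8e-05), and the Z-disc protein Csrp3 from 168 ± 121 CPM to 832 ± 197 CPM (2.55, adjusted p = 0.0023). The Z-disc scaffold Ldb3 fell by 1.76 (adjusted p = 8.6e-05), from 1020 ± 264 CPM to 294 ± 51 CPM, and the filamin partner Synpo2 by 2.29 (adjusted p = 6.9e-05), from 879 ± 161 CPM to 194 ± 100 CPM. Partners of filamin C thus went in both directions while Flnc was high.

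Of 10 tested nuclear envelope partners of lamin A/C, 2 rose after atrophy, 3 fell after recovery (Syne3, Lbr and Tor1aip1) and 2 rose after repeated atrophy. After rescaling, 0 rose after atrophy, and 0 rose and 2 fell after repeated atrophy. Zmpste24, the protease that matures prelamin A, rose by 0.88 (adjusted p = 0.010) after repeated atrophy, a call lost after rescaling (0.52, adjusted p = 0.053). Lemd3 rose by 0.59 (adjusted p = 0.033), a call lost after rescaling (0.23, adjusted p = 0.31) and with the block (adjusted p = 0.11). The median of the 10 was 0.12, -0.25 and -0.11 at the 3 stages, or -0.17, -0.26 and -0.48 after rescaling. Of 8 genes for the turnover of desmin filaments, 3 rose in atrophy, 0 in recovery and 3 in repeated atrophy limbs, among them the protease Capn2 (1.33, adjusted p = 0.0058) and the segregase Vcp (1.27, adjusted p = 4.4e-04), with medians of 0.29, -0.08 and 0.48, while the desmin transcript itself was not called. After rescaling, 1 rose and 1 fell after atrophy and 2 rose and 1 fell after repeated atrophy, and the medians were -0.08, -0.09 and 0.12.

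Among the 9 control limbs, Pearson's r over the 45 pairs of these genes ran from -0.70 (Krt18 and Nes) to 0.88, with a median of 0.38, and 10 pairs were below 0. It was 0.88 between Lmna and Flnc, 0.88 between Lmna and Plec, 0.83 between Des and Synm, 0.83 between Krt8 and Des and 0.79 between Krt8 and Krt18, but -0.60 between Nes and Synm and 0.02 between Des and Vim. These are descriptions over limbs that share depth, scaling and the time at which the rat was killed, and the recovery rats held the lowest mean of both keratins, Des and Synm among the right limbs.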

How the data were processed

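The authors removed contaminant reads with Bowtie2 (2.2.5 in the processing notes) and mapped the rest to rn7 with STAR within Partek Flow, and the counting step is not given in the sources used here. The deposited values are CPM: each column sums to 1000000 over 14271 rows, and 24 of 27 value columns were used, 3 matching no sample record. Rows are transcripts with fractional values, so no count test was run. Depth, inferred from the smallest step of low values, was 18.9 to 30.9 (median 26.1) in units of 1000000 reads.

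Duplicate rows (28) were dropped. Rows above 0 in at least 3 limbs were fitted as log2(CPM + 1) with limma 3.58.1 (R 4.3.3, intensity trend, all 18 limbs of the TTX rats in 1 fit, no block). Sham comparisons were fitted on their own limbs. The code was tested on simulated data. Figures used Python 3.11.15 and matplotlib 3.10.9.

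The members and gene lists were chosen with earlier results of these data known. All 10 members are named. From each other list, the 2 largest rises and 2 largest falls after repeated atrophy are named, among called genes with a mean of at least 1 CPM. Some, not all, of the genes behind counts of 5 or fewer were chosen after their values were seen. So were Myod1, Pax7, Vcam1 and the fibroblast and macrophage markers. The labels tie both limbs to 1 rat, so the animal is a true pair. Deviations of the limbs of a rat correlated at -0.19 to 0.60 in the 9 TTX rats (median 0.06, over 0.1 in 4) and at 0.62 to 0.84 in the 3 sham rats. Alternatives were pseudocounts of 0.1 and 10, trimmed mean or median of ratios rescaling (the latter added after seeing the data), no filter or a mean of 10 CPM, no trend, a fold minimum of 1.5, summed rows, the animal block, 12 right limbs as control and leaving out each rat. Some genes of the lists, among them Dsp, Eppk1, Xirp1, Sun2, Syne1 and Syne2, were not analysed here.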

Additional observations from a re-analysis of the deposited data

How the results depend on the processing

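The repeated atrophy calls of Krt18, Lmna and Flnc kept their direction and threshold under the pseudocounts, rescalings, trend, fold minimum, summed rows, 12 right limbs and animal block; a filter at a mean of 10 CPM removed Krt18 and left 2. Over 11 settings other than leaving out a rat, 358 of 405 values kept both direction and side of the threshold or moved by less than 1 SD. The 405 values include differences that were never called. With the animal as a block 19 values kept their place, while 14 calls were lost. In that fit 4 uncalled differences changed sign and 1 value, of Krt8, moved further. Counts of members called moved under rescaling, to 1 after atrophy by either method (from 3 to 4 after recovery, with Plec, and after repeated atrophy, with Synm), and under the animal as a replicate block, to 0 after atrophy, 0 after recovery, 0 from atrophy to recovery and 0 from recovery to repeated atrophy. The cause was not tested.

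Some differences of TTX limbs from control that were not called changed sign. With the trimmed mean these were Vim (-0.07) and Sync (-0.24) after atrophy and Des (-0.13) and Sync (-0.04) after repeated atrophy, and with the median of ratios Vim (-0.08), Sync (-0.25), Des (-0.13) and Sync (-0.04). With rows summed they were Plec after atrophy (0.05) and Nes (0.16) and Plec (0.01) after repeated atrophy. With the animal as a replicate block they were Nes after atrophy (0.02) and Krt18 (0.67), Des (0.08) and Sync (-0.20) after recovery.

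Leaving out each rat gave 0 to 3 called members after atrophy, 0 to 4 after recovery, 3 to 3 after repeated atrophy, 1 to 4 from atrophy to recovery, 4 to 5 from recovery to repeated atrophy and 0 to 0 elsewhere. Differences that crossed 0 were, after atrophy, Nes (-0.40 to 0.09), Synm (-0.12 to 0.02) and Plec (-0.35 to 0.04), after recovery Krt18 (-0.46 to 0.42), Sync (-0.17 to 0.20), Lmna (-0.30 to 0.24) and Krt8 (-0.18 to 1.05), and after repeated atrophy Vim (-0.19 to 0.06), Nes (-0.31 to 0.14) and Plec (-0.33 to 0.15). With 3 rats a stage, small differences of Des, Sync and Plec were not detectable, and transcript rows that share reads carry no separate information.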
